A study of Mus musculus with 4 samples.

Results

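A set of 10 genes of leukocyte adhesion was followed through CD45+ cells of the injured mouse brain, namely 2 adhesion ligands (Vcam1 and Icam1) and 8 integrin subunits (Itga4, Itgb1, Itgal, Itgb2, Itgae, Itgb7, Itgav and Itgb5). The genes were chosen by symbol, and all 10 were found among the 32285 genes of the deposited matrices. Single-cell RNA sequencing (scRNA-seq) had been done on CD45-positive primary cells of the thalamus and of the hippocampus (HPC). All mice carried the genotype given as C57B6/J and the treatment given as cortical brain injury, so there was no uninjured group, and neither age nor time after injury was in the labels. Each region had 4 tagged sets of cells, each taken as 1 mouse although the labels do not say so, and p-values measure the spread between these sets. Each region was also a single 10x library, and so a difference of region cannot be told apart from one of library.

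Integrins are heterodimers of an alpha and a beta chain that bind ligands on other cells or in the matrix. The chain encoded by Itga4 pairs with that of Itgb1 to form VLA-4, the leukocyte receptor for VCAM1, or with that of Itgb7 to form a receptor for MAdCAM-1. The chain encoded by Itgal pairs with that of Itgb2 to form LFA-1, the receptor for ICAM1. The Itgae product (CD103) pairs with the Itgb7 chain and binds E-cadherin, while the Itgav and Itgb5 chains form a receptor for vitronectin and for the phagocytic bridge protein MFGE8. VCAM1 and ICAM1 are best known on activated endothelium, which a CD45 sort leaves out, and ICAM1 is also made by many leukocytes. The genes of the pairs lie on chromosomes 2 (Itga4 at 79255426 to 79333123 and Itgav at 83724397 to 83806916), 8 (Itgb1 at 128685654 to 128733200), 7 (Itgal at 127296260 to 127335138), 10 (Itgb2 at 77530252 to 77565708), 11 (Itgae at 73090583 to 73147446), 15 (Itgb7 at 102215995 to 102231944) and 16 (Itgb5 at 33829665 to 33949338) of GRCm38, and those of the ligands on chromosomes 3 (Vcam1 at 116109949 to 116129688) and 9 (Icam1 at 21015985 to 21028817).

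After filtering, 24939 of 29190 cells with 119958441 unique molecular identifiers (UMIs, molecules counted once) were kept, 9789875 to 26636526 UMIs a set. Cells were sorted into classes by counts of marker genes. Of the kept cells, 18723 were microglia-like, 2790 T-like, 813 neutrophil-like, 251 monocyte-like, 128 natural killer (NK)-like, 101 dendritic-like, 71 B-like and 62 border macrophage-like. Clusters were named by the class of most of their gated cells, and 98.3% of gated cells lay in a cluster of the same class. This agreement was thus partly built in. Among microglia-like cells, 11392 were homeostatic-like, 1703 resembled disease-associated microglia (DAM-like, 1467 in the thalamus and 236 in the HPC), 454 were interferon-like, 602 were major histocompatibility complex (MHC) class II-like and 1566 had UMIs of at least 2 of Cp, Rxrg and C4b, 832 of these in HPC set 1. Within a region no barcode was shared between sets (0), and 65 occurred in both regions. Levels are given as UMIs per 10,000, as mean ± SD over the sets with at least 20 cells of the class. These are 3′ counts, not scaled to length, so each gene was compared only with itself.

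Across cell classes the 10 genes fell into patterns that differed by chain. Itgb5 was highest in microglia-like cells (11.2 ± 0.69, n = 8 sets), at 1.86 ± 0.46 in monocyte-like cells (n = 4) and at 0.478 ± 0.12 in T-like cells (n = 8). Its partner Itgav was at 2.25 ± 0.14 in microglia-like, 1.28 ± 0.21 in monocyte-like and 1.20 ± 0.22 in T-like cells. Both genes of the vitronectin receptor were thus higher in every microglia-like than in every T-like sum. Itga4 had the opposite order, with 0.104 ± 0.053 in microglia-like cells against 3.11 ± 0.82 in T-like, 3.26 ± 1.6 in monocyte-like and 2.23 ± 0.62 in neutrophil-like cells (n = 6). Itgal was at 0.0450 ± 0.019 in microglia-like cells and at 2.86 ± 0.26 and 2.91 ± 0.78 in T-like and neutrophil-like cells. The LFA-1 alpha chain gene was therefore low in microglia-like cells, while its partner Itgb2, which also pairs with other alpha chains of myeloid cells, was at 1.61 ± 0.080 there, 1.65 ± 0.16 in T-like and 2.79 ± 0.54 in neutrophil-like cells. Itgb1 was at 2.13 ± 0.18 in microglia-like and 2.70 ± 0.41 in T-like cells. Itgae and Itgb7 were highest in T-like cells, at 1.59 ± 0.31 and 3.61 ± 0.21, against 0.0705 ± 0.024 and 0.0259 ± 0.0058 in microglia-like cells.

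**Figure D1:**
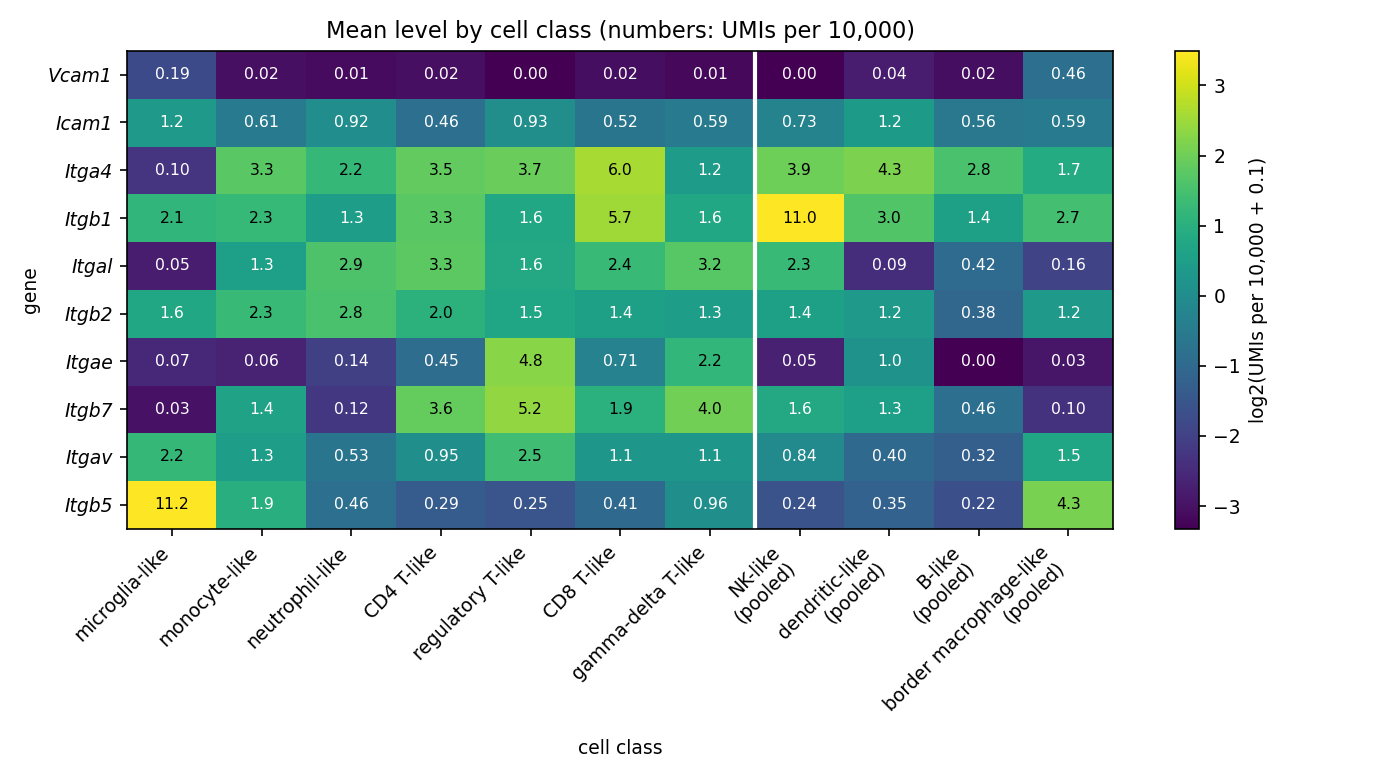
Mean level of the 10 genes (rows) in each cell class (columns), written in UMIs per 10,000 and coloured by log2 of that level plus 0.1; the columns right of the white line are pooled over all sets because few sets held 20 such cells. Colours are to be read along a row: Itgb5 peaks in microglia-like cells (11.2), Itgb1 in NK-like cells (11.03), Itgae and Itgb7 in regulatory T-like cells.

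Which neighbours in these orders differed was tested for microglia-, monocyte-, neutrophil- and T-like cells with two-sided exact sign-flip permutation tests over sets, and 0 of 30 neighbouring pairs passed after Benjamini-Hochberg adjustment (4 at an unadjusted p of 0.0312, the smallest that 6 sets allow). Pairs with monocyte-like cells had 4 sets and could not go below 0.125. With these set numbers none of the 30 pairs could have passed after adjustment, so the count of 0 carries no information. Without monocyte-like cells, an alternative chosen after seeing the data, 4 of 20 pairs passed, each at an exact permutation p of 0.00781, the smallest that 8 sets allow, and an adjusted p of 0.0391. T-like exceeded microglia-like cells in Itgal by a log2 difference of 4.36 ± 0.19 (SD, n = 8 sets) and in Itgb1 by 0.32 ± 0.19. Microglia-like exceeded T-like cells in Itgb5 by 4.31 ± 0.29 and in Itgav by 0.87 ± 0.30, all higher in 8 of 8 sets. Itgb2 in T-like and microglia-like cells did not differ beyond the spread (log2 difference 0.03 ± 0.13, higher in 5 of 8 sets, exact permutation p = 0.523).

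Smaller classes were pooled over all sets, with exact Poisson 95% intervals that cover counting error only. In NK-like cells Itgb1 reached 11.03 (10.2 to 12.0), from 603 UMIs in 128 cells, and Itga4 3.90 (3.39 to 4.46). Dendritic-like cells held Itga4 at 4.34 (3.87 to 4.86), Itgae at 1.04 (0.810 to 1.30) and Itgb7 at 1.34 (1.08 to 1.64), and their Itgal was low at 0.0863 (0.0317 to 0.188). CD103 is a known marker of a subset of dendritic cells. Border macrophage-like cells had more Vcam1 than the other small classes, at 0.459 (0.251 to 0.770) from 14 UMIs, and they also held Itgb5 at 4.26 (3.56 to 5.06) and Itga4 at 1.74 (1.30 to 2.27). B-like cells had 0 UMIs of Itgae among 500421, which allows a level of up to 0.0599 when taken as 3 UMIs, and of up to 0.0737 by the Poisson interval.

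Vcam1, the ligand gene of VLA-4, was found mainly in microglia-like and border macrophage-like cells. Its level was 0.191 ± 0.15 in microglia-like cells (n = 8), 0.0216 ± 0.043 in monocyte-like, 0.0147 ± 0.036 in neutrophil-like and 0.00905 ± 0.011 in T-like cells. After thinning each cell to 2000 UMIs, 2.43% ± 0.79 of thalamus and 4.57% ± 3.6 of HPC microglia-like cells held a Vcam1 UMI (5.34% and 9.71% unthinned), against 0.0956% and 0.281% of T-like cells, a class not known for VCAM1. Thinning left out 318 and 265 microglia-like and 57 and 20 T-like cells, which were shallower. Icam1 was broader, with a UMI in 18.6% ± 1.1 and 20.5% ± 3.6 of thinned microglia-like cells, and at 1.17 ± 0.19, 0.916 ± 0.64 and 0.513 ± 0.15 UMIs per 10,000 in microglia-, neutrophil- and T-like cells.

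T-like cells were divided by Foxp3 alone (regulatory), Cd4, Cd8a and Cd8b1, and gamma-delta receptor genes. All 4 subsets held UMIs of the integrin genes given here, at differing mean levels. Itgae was at 4.59, 4.69 and 4.32 in regulatory T-like cells of thalamus sets 1, 2 and 4 and at 5.49 in HPC set 1. In gamma-delta T-like cells, which were the most numerous (887 cells), it ranged from 1.20 to 3.37 over 7 sets, in CD8 T-like cells from 0.280 to 1.11 over 4 sets and in CD4 T-like cells from 0.0640 to 0.817 over 6 sets. The regulatory sums thus lay above all others without overlap, and the gamma-delta sums above the CD4 and CD8 sums. Its partner Itgb7 was at 5.17 ± 1.1 in regulatory, 4.02 ± 0.35 in gamma-delta, 3.60 ± 0.40 in CD4 and 1.93 ± 0.34 in CD8 T-like cells. Itga4 was at 6.02 ± 1.2 in CD8, 3.73 ± 0.82 in regulatory, 3.51 ± 0.70 in CD4 and 1.25 ± 0.83 in gamma-delta T-like cells, and CD8 sums (5.02 to 7.40) did not overlap with any other subset. Itgb1 was also highest in CD8 T-like cells, at 5.68 ± 0.34, though one CD4 sum (HPC set 4) reached 5.91. The highest means of both VLA-4 genes were thus in CD8 T-like cells and those of both E-cadherin receptor genes in regulatory T-like cells, with overlap for Itgb1 and Itgb7.

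Itgal was at 3.35 ± 0.42, 3.18 ± 0.24 and 2.37 ± 0.29 in CD4, gamma-delta and CD8 T-like cells and at 1.63 ± 0.40 in regulatory cells, whose highest sum (2.01) lay below the lowest of the other subsets (2.07). Itgav was at 2.53 ± 0.44 in regulatory T-like cells, against 0.952 ± 0.21 to 1.13 ± 0.24 in the other subsets, again without overlap (2.17 against at most 1.42). Integrins with an alpha-v chain are known activators of latent TGF-beta. Of 30 neighbouring pairs of subsets, 0 passed the exact permutation test after adjustment and 1 did unadjusted (Itga4, CD4 above gamma-delta). Most pairs had 4 sets. With these set numbers none of the 30 could have passed after adjustment, so the count of 0 carries no information. Between regions, T-like cells had 0 of 9 tested members called by edgeR's quasi-likelihood test (0 with DESeq2 and 0 at an unadjusted p under 0.05), beside 0.233% of all genes tested. The log2 differences, thalamus minus HPC, ran from -0.26 (SE 0.22, Itga4, adjusted p = 0.945) to 0.32 (SE 0.23, Icam1, adjusted p = 0.907). Their 95% intervals were -0.69 to 0.18 for Itga4 and -0.12 to 0.76 for Icam1. Vcam1 was not tested there, being too low.

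**Figure D2:**
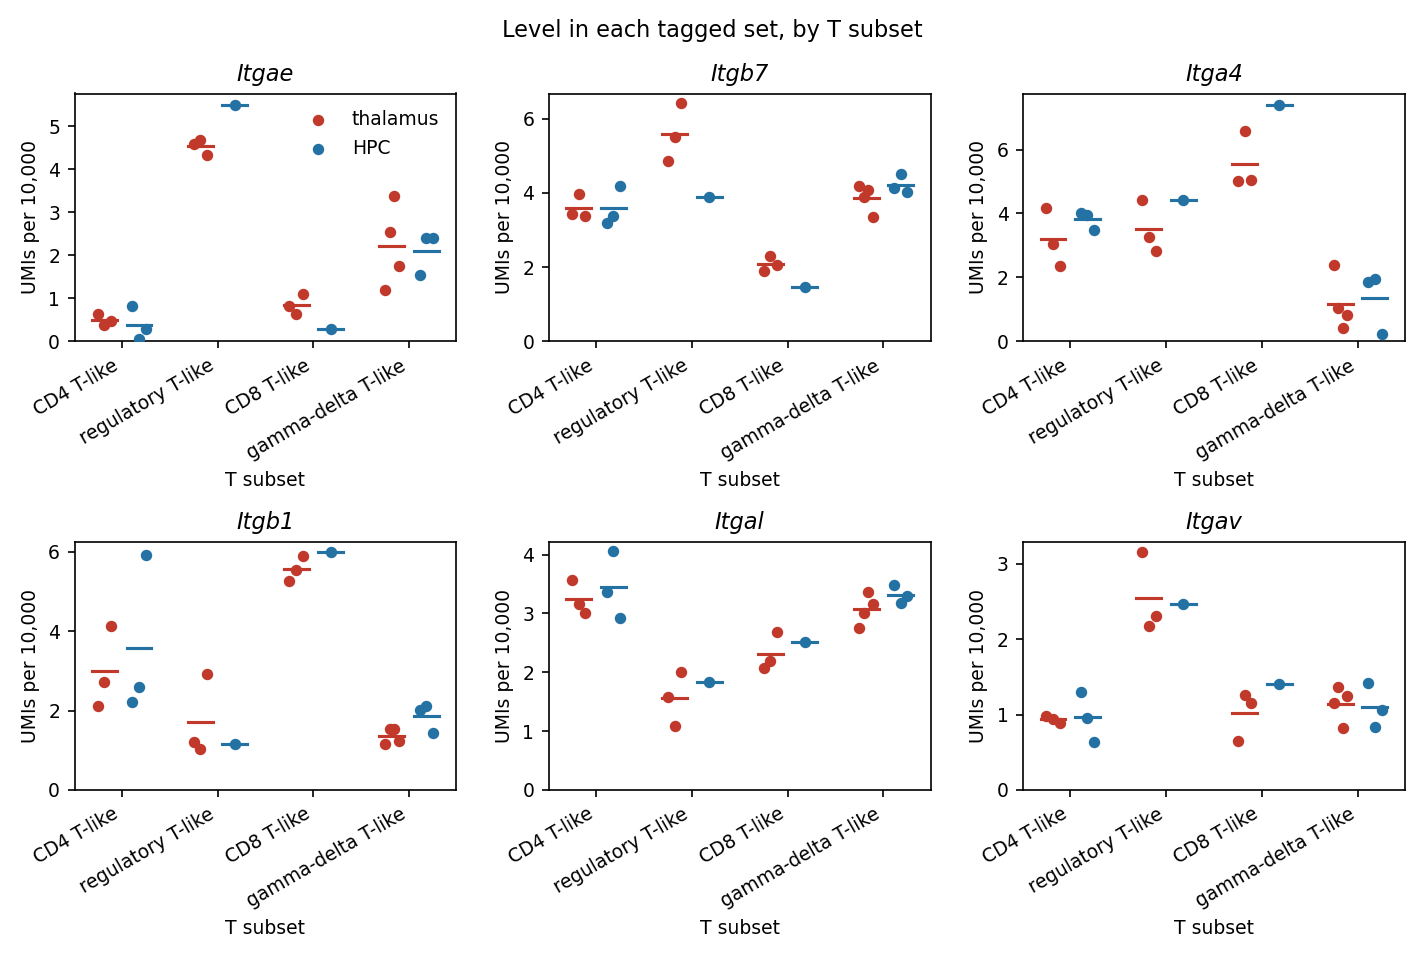
Level of 6 integrin genes (y axes, UMIs per 10,000, from 0) in 4 T subsets (x axes); each point is a tagged set with at least 20 such cells, red for thalamus and blue for HPC, and bars are means. Itgae sums of regulatory T-like cells (4.32 to 5.49) and Itga4 sums of CD8 T-like cells (5.02 to 7.40) lie above all other subsets.

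Between the regions, microglia-like cells of the thalamus had more Itga4. The level was 0.201, 0.136, 0.115 and 0.131 in the thalamus sets and 0.0915, 0.0628, 0.0492 and 0.0428 in the HPC sets. Every thalamus set lay above every HPC set. The log2 difference was 1.26 (SE 0.26, n = 4 and 4 sets), 2.39-fold, with an edgeR adjusted p of 0.0149, and 1 of the 10 members was called beside 12.7% of all genes tested. Without HPC set 2 its adjusted p was 0.0522. Itga4 was high in T-like and monocyte-like cells, and T markers in microglia-like cells moved with it without overlap, monocyte markers with a slight overlap. Summed over the 7 T markers, all of which had UMIs, the microglia-like sums held 0.373 to 0.398 UMIs per 10,000 in the thalamus and 0.181 to 0.210 in the HPC. The 7 monocyte markers summed to 0.256 to 0.316 and 0.190 to 0.261. The 8 border macrophage markers (Lyve1 at 0) summed to 0.256 to 0.538 and 0.0940 to 0.402. Itga4 was high in neutrophil-like cells too, and their markers went the other way without overlap, at 4.38 to 4.55 and 4.83 to 5.10. So did B markers (1.18 to 1.51 and 1.64 to 2.78) and astrocyte markers (2.21 to 2.70 and 3.12 to 3.74). The mixture of states differed too, since DAM-like cells, whose Itga4 was above that of homeostatic-like cells (0.158 ± 0.090 against 0.0626 ± 0.019, n = 7 sets), made up 1467 of 8068 thalamus and 236 of 10655 HPC microglia-like cells. The part of these markers and of the mixture in the difference was not tested. Within homeostatic-like cells, where the T markers also differed (0.398 to 0.423 against 0.170 to 0.208), Itga4 was at 0.0687 ± 0.014 and 0.0518 ± 0.020, a log2 difference of 0.35 (SE 0.28, 95% interval -0.20 to 0.91, edgeR adjusted p = 0.642).

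Vcam1 was lower in the thalamus on average, but a single set carried much of the gap. In microglia-like cells it was at 0.159, 0.153, 0.0723 and 0.119 in the thalamus sets and at 0.544, 0.161, 0.126 and 0.195 in the HPC sets. HPC set 1 stood apart, and the other HPC sets overlapped with the thalamus. The log2 difference was -1.02 (SE 0.47, edgeR adjusted p = 0.185), and -0.26 without HPC set 1 (adjusted p = 0.459). Set 1 was also high among homeostatic-like cells (0.542, against 0.114 to 0.143 in the other HPC sets) and among microglia-like cells outside the Cp, Rxrg and C4b group (0.506, against 0.118 to 0.179). In homeostatic-like cells the log2 difference was -1.12 (SE 0.56, adjusted p = 0.405), and -0.21 without HPC set 1. Of the 6 endothelial markers, Cldn5 and Slco1a4 were at 0 in microglia-like cells, and the list summed to 0.0807 to 0.228 in the thalamus and 0.0361 to 0.0518 in the HPC. Other lists were lower in the thalamus without overlap, while Vcam1 was lower only on average. Astrocyte markers summed to 2.21 to 2.70 and 3.12 to 3.74 in thalamus and HPC, B markers to 1.18 to 1.51 and 1.64 to 2.78, and neutrophil markers to 4.38 to 4.55 and 4.83 to 5.10. Choroid plexus markers went the other way without overlap (0.466 to 0.647 and 0.00546 to 0.0122), as did T markers (0.373 to 0.398 and 0.181 to 0.210). Border macrophage markers also ran higher in the thalamus, with overlap (0.256 to 0.538 and 0.0940 to 0.402). The part of these lists was not tested.

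In DAM-like cells Vcam1 was at 0.0986, 0.211, 0.0653 and 0.104 in the thalamus and at 0.323, 0.111 and 0.397 in HPC sets 1, 2 and 4, with HPC set 3 left out for its few cells. HPC sets 1 and 4 lay above all thalamus sets and set 2 within them. The log2 difference of -1.39 (SE 0.37) had an edgeR adjusted p of 0.0833, so 0 of 8 members tested were called (0 with DESeq2, 1 at an unadjusted p under 0.05), beside 1.34% of all genes. Without thalamus set 2 the adjusted p was 0.0158, and without HPC set 1 it was 0.605 with a log2 difference of -1.14. The difference ran from -1.67 to -1.14 over the fits that left out a set.

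The tagged sets of the 2 regions with the same number deviated together, clearly only for sets 1 and 3 (correlations 0.50 and 0.48, against 0.14 and 0.18 for sets 2 and 4). No label says that equal numbers are the same mouse, so the pairing is inferred. Fits with the set number as a block (a paired analysis) changed several calls. In microglia-like cells the block left Itga4 called (log2 difference 1.30, adjusted p = 2.51e-05) and added 4 members by edgeR. These were Vcam1 (-0.89, adjusted p = 0.0154), Itgal (0.76, adjusted p = 0.00473), Itgb1 (-0.12, adjusted p = 0.0362) and Itgb2 (0.13, adjusted p = 0.0474). Without the block they had adjusted p of 0.185, 0.184, 0.111 and 0.250. In homeostatic-like cells 0 of 10 members were called by edgeR, beside 0.918% of all genes tested. DESeq2 called 0, and 0 had an unadjusted edgeR p under 0.05. With the block edgeR called Vcam1 (-0.91, adjusted p = 0.0143). For neither class is the share of all genes called with the block given here. The members added by the block can therefore not be set against such a share. Itgb1 levels in microglia-like cells were 1.898, 2.069, 2.096 and 1.937 in the thalamus sets and 2.098, 2.303, 2.400 and 2.255 in the HPC sets, so that the regions did not overlap, though by a narrow margin. Itgal was at 0.0726, 0.0655, 0.0322 and 0.0532 in the thalamus sets and 0.0527, 0.0336, 0.0175 and 0.0328 in the HPC sets, with overlap, and its log2 difference was 0.72 (SE 0.34), or 1.05 without HPC set 1 (adjusted p = 0.0336). The T markers given beside Itga4 stand beside Itgal too. Icam1, Itgav, Itgae and Itgb5 of microglia-like cells had log2 differences of -0.11 (SE 0.15), -0.01 (SE 0.047), -0.25 (SE 0.27) and -0.05 (SE 0.063), and were called with neither fit, as was Itgb7 (0.49, SE 0.18, adjusted p = 0.107).

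**Figure D3:**
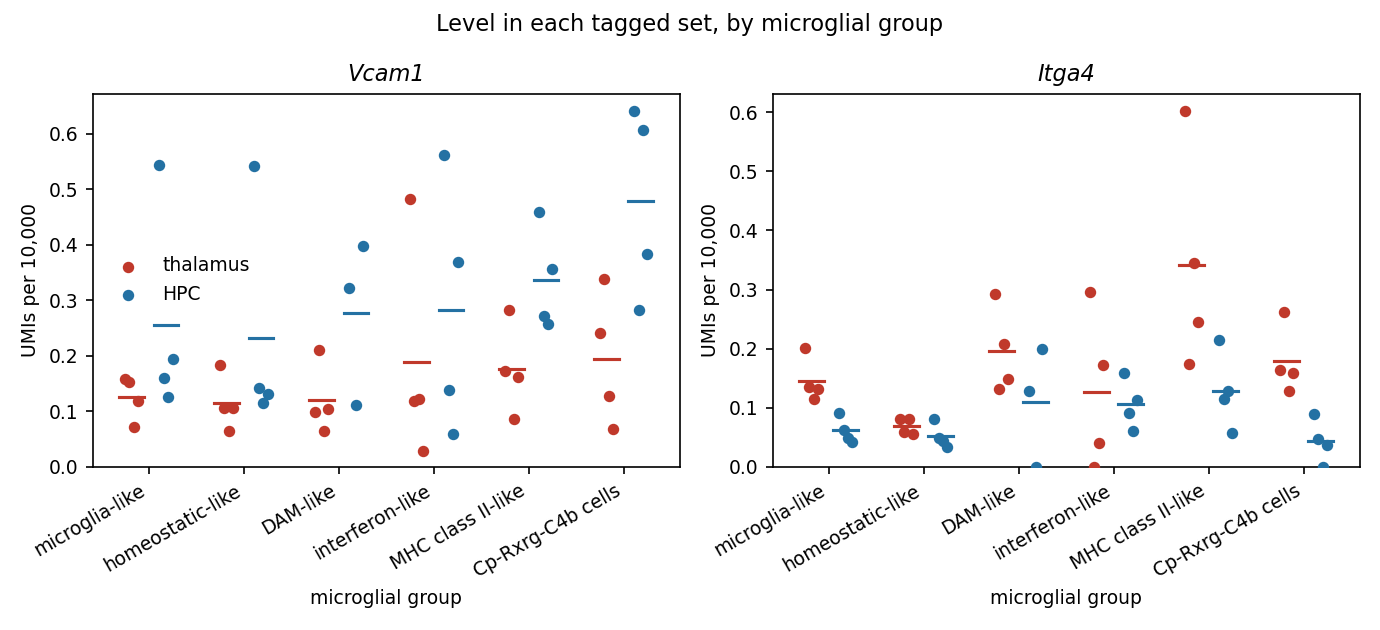
Vcam1 and Itga4 levels (y axes, UMIs per 10,000, from 0) in all microglia-like cells and in 5 microglial groups (x axes); each point is a tagged set, red for thalamus and blue for HPC, and bars are means. HPC set 1 stands apart for Vcam1 in microglia-like and homeostatic-like cells (0.544 and 0.542), and Itga4 in microglia-like cells does not overlap between regions.

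Microglial states of the same sets were then compared with the set as a block. DAM-like against homeostatic-like cells (7 sets, HPC set 3 left out) changed the most members of the 4 state comparisons, 6 of 9 tested by edgeR, 3 in each direction, beside 38.9% of all genes tested. Itga4 rose by a log2 change of 1.53 (SE 0.21, adjusted p = 1.39e-06), from 0.0626 ± 0.019 to 0.158 ± 0.090, and was higher in 6 of 7 sets, with HPC set 2 at 0. Itgal rose by 1.29 (SE 0.26, adjusted p = 0.000274), from 0.0311 ± 0.0063 to 0.0681 ± 0.028, in 7 of 7 sets. The LFA-1 beta chain gene Itgb2 rose by 0.48 (SE 0.061, adjusted p = 5.35e-07), from 1.55 ± 0.082 to 1.87 ± 0.14, with no overlap between the states. In the other direction Itgae fell by 1.19 on the log2 scale (SE 0.27, adjusted p = 0.000844), from 0.0888 ± 0.027 to 0.0355 ± 0.037. The vitronectin receptor genes fell as well, Itgav by 0.22 (SE 0.069, adjusted p = 0.0144), from 2.43 ± 0.13 to 1.76 ± 0.33, and Itgb5 by 0.16 (SE 0.062, adjusted p = 0.0475), from 11.9 ± 0.40 to 9.41 ± 0.75, both without overlap.

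The call of Itgb5 was the least steady, since it passed in 1 of 7 fits that left out a set. Vcam1, Icam1 and Itgb1 were not called, with log2 changes of 0.00 (SE 0.21, 95% interval -0.42 to 0.42), 0.08 (SE 0.083) and -0.04 (SE 0.059), and Itgb7 was too low to test. The scaling mattered here, since TMM factors put the median gene 0.19 higher than library totals did. With library totals the same 6 members were called in the same directions, and Itgb1 was called as well (-0.23, adjusted p = 0.00280), being lower in 7 of 7 sets by level (1.87 ± 0.20 against 2.22 ± 0.092). Beside Itga4 and Itgal, T markers summed to 0.293 to 0.488 in thalamus and 0.111 to 0.159 in HPC DAM-like cells (0.398 to 0.423 and 0.170 to 0.208 in homeostatic-like cells). Border macrophage markers summed to 0.371 to 0.992 and 0.590 to 0.740 in DAM-like cells and to 0.0996 to 0.201 and 0.0572 to 0.250 in homeostatic-like cells, with Lyve1 at 0 in all 4, and their part was not tested. Whether these changes differed between regions was tested as a state by region interaction, and 0 of 10 members were called by edgeR (0 with DESeq2 and 0 at an unadjusted p under 0.05), beside 0.0591% of all genes. For Itga4 the term, thalamus minus HPC, was 0.75 (SE 0.47, 95% interval -0.17 to 1.67).

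In interferon-like cells, marked by genes such as Ifit1 and Isg15, Icam1 rose. It was at 1.45, 1.37, 1.10 and 1.21 in the thalamus sets and 1.65, 1.52, 1.02 and 2.30 in the HPC sets, against 1.18, 1.08, 0.985 and 1.18 and 1.56, 1.27, 0.919 and 1.01 in the homeostatic-like cells of the same sets. The interferon-like value was the higher in 8 of 8 sets. The log2 change was 0.41 (SE 0.10, edgeR adjusted p = 0.00445), and 0.24 without HPC set 4 (adjusted p = 0.170). Of 8 members tested 2 were called, beside 9.99% of all genes. The second was Itga4, by 1.14 (SE 0.34, adjusted p = 0.0205), from 0.0602 ± 0.018 to 0.116 ± 0.093, higher in 6 of 8 sets. Its call was lost with DESeq2 (adjusted p = 0.0607) and without each of 4 sets in turn, where the adjusted p became 0.189 (set 1) and 0.0758 (set 4) for the thalamus and 0.0584 (set 1) and 0.0654 (set 4) for the HPC. Monocyte markers summed to 0.713 to 1.02 and 0.709 to 1.38 in interferon-like cells of the thalamus and HPC, against 0.193 to 0.257 and 0.152 to 0.209 in homeostatic-like cells, and their part was not tested. Itgb5 was at 10.3 ± 0.43 against 11.9 ± 0.38, without overlap, and not called (-0.14, SE 0.054, adjusted p = 0.0844).

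MHC class II-like cells had 2 of 8 members called by edgeR against homeostatic-like cells, both higher, beside 9.34% of all genes tested. These were the ligand and receptor genes Vcam1 and Itga4. Itga4 rose by a log2 change of 1.75 (SE 0.29, adjusted p = 1.05e-05), from 0.0602 ± 0.018 to 0.235 ± 0.17, in 8 of 8 sets. Vcam1 of MHC class II-like cells was at 0.172, 0.282, 0.0860 and 0.163 in the thalamus sets and at 0.459, 0.271, 0.257 and 0.357 in the HPC sets. In homeostatic-like cells of the same sets it was at 0.184, 0.106, 0.0650 and 0.106 and at 0.542, 0.143, 0.114 and 0.132. The MHC class II-like value was the higher in 6 of 8 sets and the lower in set 1 of each region. Thalamus sets 1 and 3 held only 20 and 21 MHC class II-like cells, so levels of low genes there rest on very few UMIs. The change was 0.87 (SE 0.21, adjusted p = 0.00260), and its adjusted p was 0.0524 without HPC set 4. Border macrophages present antigen on MHC class II, and their markers summed to 1.19 to 3.52 in thalamus and 0.229 to 1.07 in HPC MHC class II-like cells, above homeostatic-like cells in the thalamus without overlap, while Lyve1 and Cbr2 were at 0. Monocyte markers summed to 0.521 to 1.72 and 0.214 to 0.888. B markers summed to 1.37 to 2.31 in the thalamus and up to 62.6 (median 2.08) in the HPC, against 1.54 to 1.89 and 1.52 to 1.85 in homeostatic-like cells, and Pax5 was at 0 in the MHC class II-like cells of both regions. The part of these lists in the 2 changes was not tested, and Itga4 stayed called without each set in turn, with log2 changes of 1.60 to 1.86.

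Cells with Cp, Rxrg and C4b were compared with the other microglia-like cells, and 1 of the 10 members was called by edgeR, beside 7.16% of all genes tested. This was Vcam1, which earlier results of these data had already tied to this group, so its values are a description and no independent finding. Their Vcam1 was at 0.242, 0.339, 0.128 and 0.0681 in the thalamus sets and 0.642, 0.283, 0.608 and 0.383 in the HPC sets. In the other microglia-like cells it was at 0.149, 0.131, 0.0713 and 0.121 and at 0.506, 0.154, 0.118 and 0.179. The level was higher in 7 of 8 sets, thalamus set 4 being the exception. The log2 change was 0.78 (SE 0.16), or 1.72-fold. After thinning, 3.86% ± 2.3 of these cells in the thalamus and 8.30% ± 3.0 in the HPC held a Vcam1 UMI (10.0% and 18.7% unthinned). Border macrophage markers summed to 0.250 to 1.13 and 0.284 to 0.513 in these cells. Of the 6 endothelial markers 3 had UMIs, summing to 0.0640 to 0.204 in the thalamus and 0 to 0.0989 in the HPC, with Cldn5, Ly6c1 and Slco1a4 at 0. With library totals in place of TMM factors Itgav was called too (-0.24, adjusted p = 0.0397, at 1.86 ± 0.38 against 2.27 ± 0.14).

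**Figure D4:**
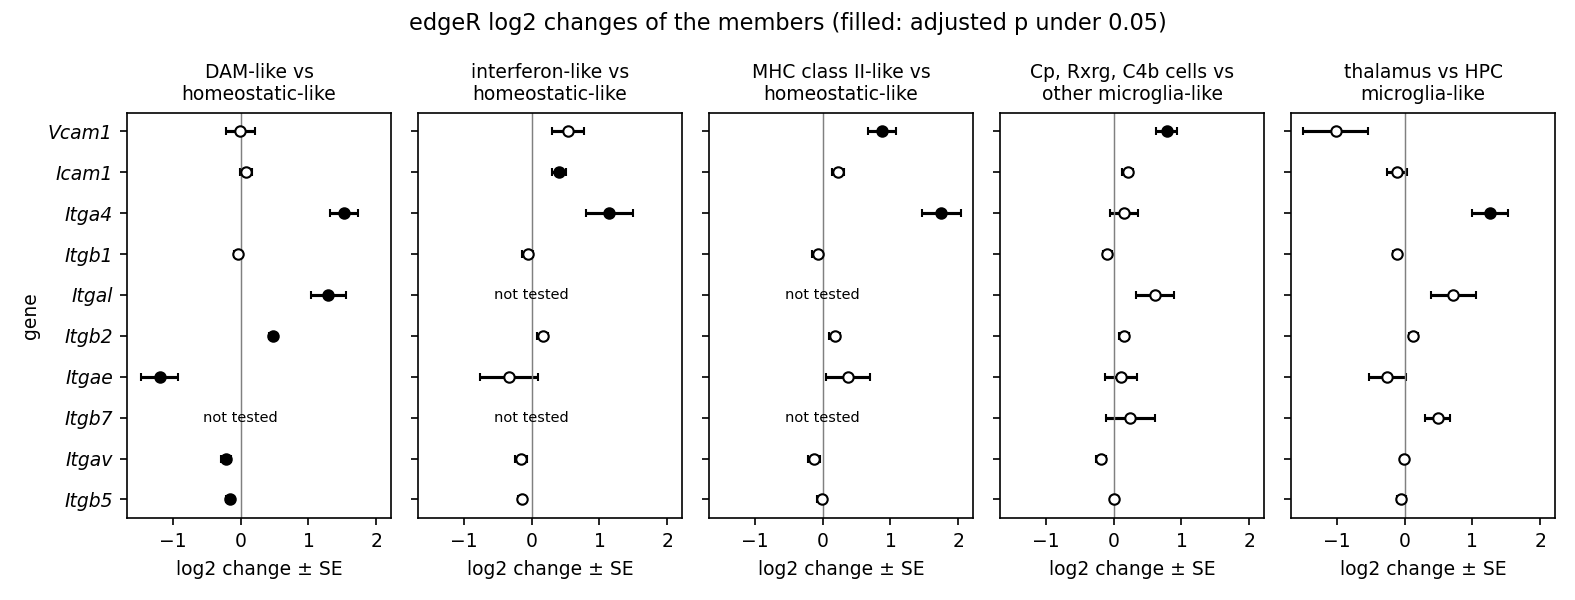
Log2 changes of the 10 genes (x axes, with SE bars) in 4 comparisons of microglial states and in the comparison of regions among microglia-like cells; filled points have an edgeR adjusted p under 0.05. Itga4 is filled in 4 of the 5 panels (1.53, 1.14, 1.75 and 1.26) and Vcam1 in the MHC class II-like and the Cp, Rxrg and C4b panels.

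A list of 54 further adhesion genes (other integrins, selectins and junction molecules, matrix ligands, and adaptors that activate integrins) was described in the same fits. Between regions, microglia-like cells had 6 of 34 tested higher in the thalamus and 0 lower, beside the 12.7% of all genes called. Of those calls over all genes 68.3% were higher, and 50.3% with library totals. The largest were the matrix ligands Spp1 (log2 difference 5.34, SE 0.70) and Fn1 (2.18, SE 0.59) and the complement receptor chain Itgax (1.94, SE 0.28). Homeostatic-like and T-like cells had 1 gene each, Spp1 in both (5.37 and 3.99), which was at 3.48 and 0.167 UMIs per 10,000 in thalamus and HPC T-like cells. Choroid plexus markers in T-like cells summed to 0.369 to 0.563 in the thalamus and 0 to 0.0365 in the HPC. B markers went the other way, at 0.633 to 0.962 and 1.06 to 2.12. The part of RNA from other cells in the Spp1 difference was not tested. DAM-like cells had 0 of 28 called between regions by edgeR (8 at an unadjusted p under 0.05).

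Across states, DAM-like cells had 8 of 31 list genes higher and 10 lower than homeostatic-like cells, beside 38.9% of all genes called. Of those calls over all genes 55.1% were higher, and 26.9% with library totals. The higher ones were led by Spp1 and Itgax, which belong to the DAM markers and so are no finding, and by Fn1 (5.79, SE 0.32), which encodes fibronectin. The lower ones were led by the integrin chain Itga9 (-1.80, SE 0.11), the P-selectin ligand gene Selplg (-1.26, SE 0.067), at 4.15 against 11.7 UMIs per 10,000, and the LFA-1 activator Rassf5 (-0.52, SE 0.11). Itga9 and Selplg were also lower in interferon-like (-0.45 and -0.23), MHC class II-like (-0.61 and -0.39) and Cp, Rxrg and C4b cells (-0.75 and -0.68). The counts there were 2 of 29 higher and 3 lower, 3 of 30 higher and 5 lower, and 2 of 31 higher and 5 lower, beside 9.99%, 9.34% and 7.16% of all genes called. Of those calls over all genes 68.1%, 62.7% and 58.4% were higher, and 48.3%, 40.1% and 41.6% with library totals. Genes named by rule besides were Spp1 (1.5) and Adam17 (0.25), the sheddase of several adhesion molecules, with Itga6 (-0.21) in interferon-like cells. In MHC class II-like cells these were Spp1 (2.15), Itgax (1.38) and Jam2 (-0.38), and in Cp, Rxrg and C4b cells Fn1 (1.54), the complement receptor chain Itgam (0.26) and Jam2 (-0.52). Homeostatic-like cells could hold at most 2 DAM markers, among them Spp1 and Itgax. Changes of these 2 genes against homeostatic-like cells were thus partly set by the gate and are no finding. The state by region interaction had 2 of 31 called, Spp1 (-4.08) and Fn1 (-3.08). Spp1 took part in the gates of both states compared there, so its value is no finding. The median log2 change of the list was 0.03 for the regions in microglia-like cells, -0.08 for DAM-like, -0.11 for interferon-like, -0.09 for MHC class II-like and -0.03 for Cp, Rxrg and C4b cells, beside medians of all genes of -0.01 to 0.00.

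Genes with the pattern most like each member were found by Pearson correlation over 66 sums of 13 classes or states by set, among 6678 genes, as a description in which sums share libraries. Itgb5 was followed by Lgmn (0.96) and Kcnk13 (0.96), which were highest in homeostatic-like cells, as was Itgav by Hivep3 (0.85), Pmepa1 (0.85) and Foxn3 (0.84). For Vcam1 the nearest were Gm13710 (0.88), Epb41l3 (0.84) and Hebp1 (0.84), and for Icam1 Rin2 (0.74), Smurf1 (0.74) and Cul1 (0.74). Itgb7 had S100a10 (0.97), Ahnak (0.96) and Sumo2 (0.96), and Itgal had Hip1 (0.94), Diaph1 (0.94) and Prr13 (0.93). Itga4 was nearest to Adgre5 (0.92), Atp5e (0.92) and Cnn2 (0.91), and Itgae to Sytl1 (0.87), Frmd5 (0.84) and Sdcbp2 (0.83), all 3 highest in regulatory T-like cells. The nearest were Klrc1 (0.75), Samd3 (0.73) and Gramd3 (0.73) for Itgb1 and Rnf149 (0.73), BC005537 (0.67) and Rhbdf2 (0.65) for Itgb2.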

How the data were processed

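CD45+ cells of thalamus and HPC were profiled with 10x 3′ chemistry (v3.1). Per the study's methods, live CD45+ cells of injured hemispheres were sorted and cells of 4 mice pooled per region. The authors deposited raw UMI counts per gene and cell in 8 matrices, with no normalization, made with Cell Ranger 7.1.0 per the file headers and aligned to mm10. Whether intronic reads were counted is not given in the sources used here. The multiplexing oligos were left out of all totals.

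Cells with 200 to 7500 genes and at most 2% mitochondrial counts were kept. A cell joined a class by the number of its listed markers with a UMI (microglia 5 of 10, T 4 of 7, neutrophil 4 of 7, monocyte 3 of 7, NK 3 of 7, B 4 of 7, border macrophage 3 of 8, dendritic 3 of 9). Microglial states needed 5 of 6 homeostatic, 4 of 9 DAM, 4 of 10 interferon or 3 of 4 MHC class II markers. Homeostatic-like cells also had to hold at most 2 DAM markers. Of the microglia-like cells, 2003 lay within 1 marker of the DAM gate, and no cell was removed as a doublet beyond those with markers of 2 classes. As an exception, cells that passed the microglial gate and held exactly 3 dendritic markers, and passed no other gate, were kept as microglia-like. Of the preset lists, 1 gene was not analysed here, and 1 gene among those most like a member is not reported here. Counts were summed per class and set (at least 20 cells) and tested with edgeR 4.0.16 in R 4.3.3 (TMM factors, filterByExpr, quasi-likelihood test), Benjamini-Hochberg adjusted over all genes tested, at a threshold of 0.05. State comparisons had the set as a block. Orders of levels were tested on log2(UMIs per 10,000 + 0.1). Shares of cells were expected shares after thinning to 2000 UMIs.

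Same-numbered sets of the regions deviated together (correlations of 0.50, 0.14, 0.48 and 0.18 over 12994 genes in microglia-like cells, against -0.46 to 0.14 for sets of different number), so the fit with the set number as a block is given beside results it changes. Alternatives were DESeq2 1.42.0, no filter on low counts, stricter gates, Louvain classes (Seurat 5.3.0, 17 clusters), a mitochondrial limit of 5%, leaving out the top 5% of cells by UMIs, and each set left out. Library totals in place of TMM factors were added after seeing the data. The tests were checked on simulated counts. Members and lists were chosen with earlier results of these data known. All 10 members were named, and of the adhesion list the 3 largest called changes in each direction with at least 20 CPM. Poisson intervals of the pooled classes cover counting error only. Intervals of edgeR changes were taken from the SE of the fit over sets, and so include the spread between sets. They use a normal quantile, which makes them somewhat too narrow for so few sets.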

Additional observations from a re-analysis of the deposited data

Results flagged for a closer look

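Among 70 groups of 4 sets tested for a set far from the others, 6 had one by Dixon's criterion at the 95% level, where chance flags about 1 group in 20. Vcam1 in HPC set 1 was at 0.544 UMIs per 10,000 in microglia-like cells (other HPC sets 0.126 to 0.195) and at 0.542 in homeostatic-like cells (0.114 to 0.143). Itgav in homeostatic-like cells of the same set was at 2.14 (2.44 to 2.45). In T-like cells, thalamus set 3 was at 0 for Vcam1 (0.00659 to 0.00793) and at 3.30 for Itgb1 (2.33 to 2.43), and HPC set 3 was at 2.27 for Itgal (3.01 to 3.06). Vcam1 was near the floor in T-like cells, of which thalamus set 3 held 114, so its 0 there carries little weight.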

How the results depend on the processing

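Counts of members called are given here. Over the 9 edgeR comparisons, 1154 changes of single members under an alternative were compared with the reported ones. Of these, 1119 kept their direction and side of the threshold or were called in neither, 19 passed it newly, 16 lost it and 0 called changes turned, while 68 uncalled ones changed sign. Between regions in microglia-like cells 1 member was called, 2 with Louvain classes, 5 with the set number as a replicate block, and 0 to 3 without each set in turn. In homeostatic-like cells 0 became 1 with the block. For DAM-like cells between regions 0 became 1 with no filter on low counts and 1 with the mitochondrial limit at 5% (Vcam1 in both), and was 0 to 1 without each set. The block changed no other call of a member. Its share of calls over all genes is not given here. DAM-like against homeostatic-like cells went from 6 to 3 with 1 more marker per gate, where Itgav had an adjusted p of 0.0799 and Itgb5 of 0.0516 and Itgae was not tested, and 5 to 6 were called without each set. Interferon-like cells had 0 to 2 without each set (2 reported), and MHC class II-like cells 1 with 1 more marker per gate and 1 to 3 without each set (2 reported). Cp, Rxrg and C4b cells had 2 in place of 1 with the mitochondrial limit at 5%, without the top 5% of cells by UMIs, and with library totals. Their fit with 1 more marker per gate was not run, since too few sets held enough cells. The order of levels across classes had 0 pairs called and 4 without monocyte-like cells. With monocyte-like cells included, the set numbers were too low for any pair to pass after adjustment. Library totals lowered the share of calls that were higher among all genes from 68.3% to 50.3% for the regions in microglia-like cells and from 55.1% to 26.9% for DAM-like cells. Shares of cells with a UMI moved beyond the spread in 38 of 40 cases when cells were not thinned. In a class with few UMIs, such as HPC DAM-like cells, low genes were limited by depth.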
